A study of Mus musculus with 12 samples.

Results

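The genes described here are 6 that mark red blood cells: the adult alpha globins Hba-a1 and Hba-a2, the adult beta globins Hbb-bs and Hbb-bt, the heme enzyme gene Alas2 and the membrane transporter gene Slc4a1. They were taken by name, by no threshold on measured values but with earlier results of these data known, from a table of 35434 genes that counted RNA in 12 tumours. All 6 were present and all 6 were among the 15269 genes with enough counts to be tested.

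The tumours were grown under the skin from the mouse mammary line 4T1, a model of triple-negative breast cancer, in female BALB/c mice aged 6 to 8 weeks, 1 tumour and 1 mouse to a library and 3 mice to a group. MC mice stayed at an ambient altitude of about 1500 m and received vehicle. MI mice stayed at the same altitude and received IOX2, an inhibitor of PHD2, the oxygen sensor encoded by Egln1, at 10 mg/kg once a day for 10 days from day 9 after inoculation. HC mice received vehicle and HI mice received IOX2 on that schedule in a low-pressure chamber set to 3500 m, and tumours of all groups were taken on study day 22. Since the chamber held HC and HI mice alone, altitude and chamber housing cannot be told apart.

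Hemoglobin, the oxygen carrier of red cells, is built from pairs of alpha and beta chains, each holding a heme. Developing red cells make the globins, the heme and a membrane carrying the anion exchanger band 3, and young red cells (reticulocytes) keep globin RNA for a time after the nucleus is lost. Red-cell production is driven by erythropoietin, a hormone whose gene is a target of the hypoxia-inducible factors that PHD2 marks for destruction. A piece of tumour holds the blood inside its vessels, so in these bulk libraries more red cells and more RNA per red cell cannot be told apart. Whether tumours were cleared of blood is not given in the sources used here, and neither are blood counts.

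The globin genes come in near-identical pairs, which bears on how well counts can be split between the members of a pair. In GENCODE M21 transcripts of build GRCm38, the coding sequences of Hba-a1 and Hba-a2, 429 bases each, differ by 1 base, C381T, counted from 1 at the A of the start codon. Those of Hbb-bs and Hbb-bt, 444 bases each, also differ by 1 base, C417T. The stretches around these bases are shown because they are the only coding letters that tell the copies apart in this reference, and the differing base is in capitals.
Hba-a1 coding bases 361 to 401: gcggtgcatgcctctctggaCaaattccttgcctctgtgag
Hba-a2 coding bases 361 to 401: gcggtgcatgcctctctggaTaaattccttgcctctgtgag
Hbb-bs coding bases 397 to 437: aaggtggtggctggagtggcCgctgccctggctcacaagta
Hbb-bt coding bases 397 to 437: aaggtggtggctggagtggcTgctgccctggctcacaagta

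Outside the coding sequence the transcripts of a pair differ more. Of all 150-base windows of the Hba-a1 transcript, 48.4% occur unchanged in Hba-a2, and 65.7% of those of Hba-a2 occur in Hba-a1. The shares were 58.7% for Hbb-bs and 50.7% for Hbb-bt. BALB/c mice carry another beta globin haplotype than the C57BL/6 reference, so the beta base and shares hold for the reference and not necessarily for these mice. Since the alpha copies also share most of their coding bases, the split of counts within each pair is uncertain. The sum of a pair does not depend on how shared reads were split, though it is too low if they were dropped.

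The promoters of 5 of the 6 genes are shown to compare their motifs, and Slc4a1 had no entry in the promoter set used. They are the 150 bases before the transcription start in RefSeq on GRCm38.p6, which is an older build than the GRCm39 named for the counts. Capitals mark 5 motifs, searched on both strands. The letters CCAAT make the CAAT box and the letters CACCC the box that Klf1-type factors bind. The letters TATAA make the TATA box. Sites of GATA factors were searched as AGATAA and, in a second form, as TGATAA.
Hba-a1 promoter, chr11:32283522-32283671, plus strand: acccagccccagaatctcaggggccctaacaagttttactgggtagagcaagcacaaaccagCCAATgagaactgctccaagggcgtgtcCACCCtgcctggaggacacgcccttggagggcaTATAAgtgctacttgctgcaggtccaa
Hba-a2 promoter, chr11:32296342-32296491, plus strand: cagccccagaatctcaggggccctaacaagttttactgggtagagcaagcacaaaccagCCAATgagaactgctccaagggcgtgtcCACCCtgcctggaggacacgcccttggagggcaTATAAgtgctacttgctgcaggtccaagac
Hbb-bs promoter, chr7:103827929-103828078, minus strand: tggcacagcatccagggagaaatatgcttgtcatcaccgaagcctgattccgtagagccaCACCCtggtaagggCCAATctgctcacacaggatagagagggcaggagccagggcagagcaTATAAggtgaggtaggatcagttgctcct
Hbb-bt promoter, chr7:103813924-103814073, minus strand: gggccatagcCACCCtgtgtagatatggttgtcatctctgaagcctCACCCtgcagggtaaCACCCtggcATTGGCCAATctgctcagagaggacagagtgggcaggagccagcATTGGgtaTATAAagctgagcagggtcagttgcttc
Alas2 promoter, chrX:150547267-150547416, plus strand: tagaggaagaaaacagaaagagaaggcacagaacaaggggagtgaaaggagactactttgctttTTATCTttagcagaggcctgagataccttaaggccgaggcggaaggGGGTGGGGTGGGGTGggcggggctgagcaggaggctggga

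All 4 globin promoters held a CAAT box, a CACCC box and a TATA box, and none of them held a GATA motif. In the order Hba-a1, Hba-a2, Hbb-bs and Hbb-bt, the TATA box began at -27, -30, -29 and -28 from the start. The CAAT box began at -88 in Hba-a1, -91 in Hba-a2 and -76 in Hbb-bs. Hbb-bt held 3 CAAT boxes, beginning at -80 and -36 on the opposite strand and at -75 on the same strand, and 3 CACCC boxes. The Alas2 window held neither a CAAT box nor a TATA box. It had 3 CACCC boxes on the opposite strand, which abut one another in a G-rich run, and 1 AGATAA on the opposite strand, beginning at -86. Over 32851 promoters of the same length, the CAAT box occurred in 24.5%, the CACCC box in 37.4% and the TATA box in 14.2%. The AGATAA form of the GATA motif occurred in 5.65% and the TGATAA form in 4.45%. These matches are letters in a window and not measured sites.

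Levels were lowest in MC and highest in HI for all 6 genes by group mean. They are given as CPM, counts scaled to a common library size, with TMM scaling, which evens out library composition. The 4 globins summed to 18.95 to 19.7 CPM in the 3 MC tumours, 53.1 to 98.7 in HC, 84.1 to 117 in MI and 155 to 294 in HI. This was 0.00188% to 0.0285% of all counts, so the globins stayed a small share of tumour RNA in every library. Library totals ran from 31661685 to 40019343 counts, so 3 counts, the limit that a count of 0 allows, equal 0.0728 to 0.0917 CPM per library; such limits cover counting error only.

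Hba-a1, the more abundant alpha globin, stood at 4.96, 5.15 and 5.14 CPM in MC1 to MC3 and at 33.3, 29.95 and 23.7 CPM in MI1 to MI3. It stood at 28.6, 15.6 and 16.8 CPM in HC1 to HC3 and at 81.3, 53.0 and 43.5 CPM in HI1 to HI3. The 3 MC tumours were nearly equal, the HI tumours were all above the rest, and HC1 fell among the MI tumours. Hba-a2 stood at 1.16, 0.606 and 1.50 CPM in MC and 9.56, 7.72 and 7.04 in MI, against 6.67, 3.90 and 3.38 in HC and 18.6, 11.4 and 11.2 in HI, with no overlap between any of the groups.

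Hbb-bs, the more abundant beta globin, stood at 11.3, 11.3 and 10.9 CPM in MC and 61.8, 56.0 and 46.0 in MI, against 56.2, 29.9 and 29.7 in HC and 168, 92.4 and 85.3 in HI. HC1 again lay between MI tumours, and no other groups overlapped. Hbb-bt stood at 2.22, 1.89 and 1.40 CPM in MC and 11.9, 11.0 and 7.38 in MI, against 7.22, 3.65 and 5.07 in HC and 25.8, 15.6 and 15.1 in HI. The highest HC value and the lowest MI value of Hbb-bt were nearly equal, and the other groups were far apart.

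Alas2 encodes the red-cell form of the enzyme for the first step of heme synthesis. It stood at 1.33, 0.757 and 0.840 CPM in MC and 6.46, 7.89 and 3.39 in MI, against 5.87, 3.27 and 3.77 in HC and 21.7, 10.6 and 10.6 in HI. The MI and HC tumours overlapped widely, and all HI tumours were above them. HI1 had the highest value of each of the 6 genes, followed by HI2 and then HI3.

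Slc4a1 encodes band 3, which exchanges chloride for bicarbonate and anchors the red-cell skeleton. It was near the limit of detection outside HI: 3, 3 and 1 counts in MC and 5, 6 and 0 in MI, against 6, 13 and 6 in HC and 108, 25 and 19 in HI. All MC tumours and MI3 were at or under 3 counts, and the gene was tested only because of its level in HI, so it is left out of the counts of genes given for single comparisons. Its intervals pool reads over the mice of a group and cover counting error only. HI1 alone gave 2.82 CPM, against 0.617 and 0.473 CPM in the other HI tumours.

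**Figure D1:**
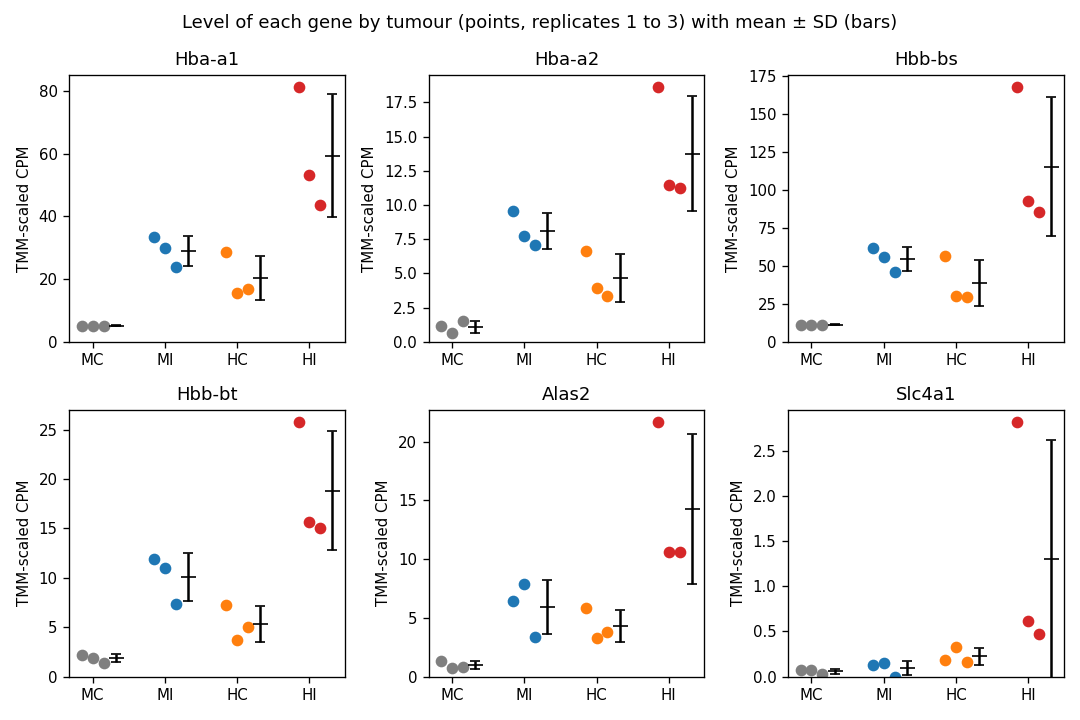
Level of each of the 6 genes, 1 panel a gene, as TMM-scaled CPM on linear axes that start at 0 and differ between panels. Points are the 3 tumours of each group in the order of replicates 1 to 3 and bars the mean ± SD; HI1 is the highest point in every panel, and for Slc4a1 the lower SD bar of HI runs below the axis.

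Per unit of gene length, which allows genes to be compared, the order was the same in all groups by mean: Hbb-bs, Hba-a1, Hbb-bt, Hba-a2, Alas2 and Slc4a1. In MC, the deposited FPKM (fragments scaled by gene length and library size) were 17.6 ± 0.558 (SD, n = 3) for Hbb-bs, 9.13 ± 0.0840 for Hba-a1, 2.93 ± 0.695 for Hbb-bt, 1.94 ± 0.796 for Hba-a2, 0.496 ± 0.166 for Alas2 and 0.0130 ± 0.00649 for Slc4a1. In HI they were 179 ± 65.6, 106 ± 31.9, 29.8 ± 8.63, 24.3 ± 6.69, 7.16 ± 2.98 and 0.282 ± 0.277 in the same order. Hbb-bt and Hba-a2 were neighbours that did not differ beyond their spread, at 8.51 ± 3.07 and 8.35 ± 3.40 FPKM in HC.

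IOX2 at ambient altitude, MI against MC, was the only comparison of 2 groups in which edgeR called genes. Mean CPM rose 5.70-fold for Hba-a1, 7.45-fold for Hba-a2, 4.88-fold for Hbb-bs and 5.49-fold for Hbb-bt. In edgeR's quasi-likelihood fit of all 12 libraries, the log2 change was 2.51 (SE 0.27) with an adjusted p of 0.0195 for Hba-a1. It was 2.89 (SE 0.36) for Hba-a2, 2.29 (SE 0.30) for Hbb-bs and 2.46 (SE 0.32) for Hbb-bt, each with an adjusted p of 0.0271. A gene was called at an adjusted p under 0.05 over all genes tested, and these 4 globins were the only 4 genes called higher, 0.0262% of those tested; none was called lower. Alas2, at 5.91 ± 2.30 CPM in MI against 0.977 ± 0.312 in MC (SD, n = 3), had a log2 change of 2.60 (SE 0.42) and missed the threshold in edgeR (adjusted p = 0.159). Slc4a1 had 11 counts over the MI tumours against 7 over MC, a ratio of 1.59 with an exact 95% interval of 0.563 to 4.84. The groups did not overlap for the 4 globins and Alas2, as for 4.75% of all genes tested, higher in MI. DESeq2 called these 5 genes higher, against 0.105% of genes, and limma-voom called 0. The edgeR calls needed most of the libraries: none of the 6 genes was called without MC1, MC2, MC3, MI1 or HI2 in turn, 1 was called without HC3 and 2 without MI2, in fits that called 0 to 6 genes in all, while the log2 change of Hba-a1 stayed at 2.41 to 2.64.

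IOX2 at simulated altitude, HI against HC, showed higher values of the 4 globins and Alas2 with no overlap between groups, as for 5.74% of genes tested. Mean CPM was 2.92 times as high in HI for Hba-a1, 2.96 for Hba-a2, 2.98 for Hbb-bs, 3.55 for Hbb-bt and 3.32 for Alas2. The log2 changes were 1.55 (SE 0.26) for Hba-a1, 1.57 (SE 0.33) for Hba-a2, 1.58 (SE 0.29) for Hbb-bs, 1.83 (SE 0.30) for Hbb-bt and 1.73 (SE 0.38) for Alas2. In edgeR none of the 6 passed, and neither did any other gene (0%), with adjusted p values of 0.577 to 0.964. At an unadjusted p under 0.05, these 5 were higher, against 2.33% of genes, and Hbb-bt, Hba-a1 and Hbb-bs had the 3 smallest p values of all genes. DESeq2, a second count test, called the 5 higher, against 0.0975% of the genes it gave an adjusted p, and limma-voom called 0. Slc4a1 had 152 counts over HI against 25 over HC, a ratio of 5.65 with an exact 95% interval of 3.68 to 9.00; HI1 supplied 108 of the HI counts, and without it the ratio was 2.45 (1.47 to 4.18).

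Averaged over both altitudes, IOX2 raised 5 of the 6 genes. The log2 change was 2.03 (SE 0.19, adjusted p = 0.00357) for Hba-a1 and 2.23 (SE 0.25, adjusted p = 0.00563) for Hba-a2. It was 1.93 (SE 0.21, adjusted p = 0.00495) for Hbb-bs and 2.14 (SE 0.22, adjusted p = 0.00481) for Hbb-bt. For Alas2 it was 2.16 (SE 0.28, adjusted p = 0.0235). Only 6 genes were called in all by edgeR, 0.0393% of those tested and all of them higher, and 5 of these 6 were the globins and Alas2. The call of the 4 globins held in every alternative tried and without any single library, with adjusted p values of at most 0.0369 when a library was left out. That of Alas2 was lost without any 1 of MC1, MC2, MC3, MI1, MI2, HC2 and HC3, with adjusted p values up to 0.161, and with limma-voom (0.210) and on log2(FPKM + 1) (0.0921). Slc4a1 had a log2 change of 1.58 (SE 0.68) and an adjusted p of 0.759.

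**Figure D2:**
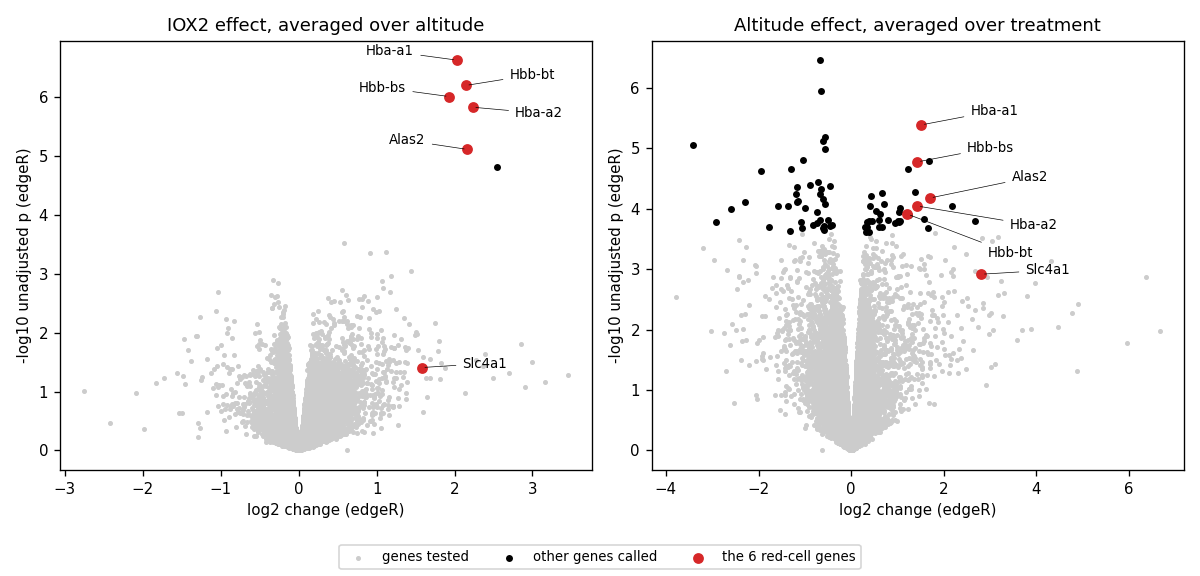
Each point is 1 of 15269 genes, with its log2 change on the x axis and -log10 of its unadjusted edgeR p on the y axis, for IOX2 averaged over altitude (left) and altitude averaged over treatment (right). The 4 globins and Alas2 are 5 of the 6 genes called on the left, and on the right 5 of the 6 red-cell genes lie among 76 called.

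Simulated altitude in vehicle mice, HC against MC, showed higher means of the 4 globins and Alas2, without overlap between groups, as for 10.3% of genes tested. Mean CPM was 4.00 times as high in HC for Hba-a1, 4.27 for Hba-a2, 3.45 for Hbb-bs, 2.89 for Hbb-bt and 4.40 for Alas2. The log2 changes were 2.00 (SE 0.27), 2.09 (SE 0.36), 1.78 (SE 0.29), 1.53 (SE 0.31) and 2.13 (SE 0.41) in that order. None of the 6 passed in edgeR and neither did any other gene (0%), with adjusted p values of 0.156 to 0.488; Hba-a1 had the smallest p of all genes. At an unadjusted p under 0.05, these 5 were higher, against 6.14% of genes. The labels do not say that replicate numbers mark pairs or a batch. With the number as a block in the fit of all 12 libraries, edgeR called the 5 higher, against 0.0655% of genes. Adjusted p values in that edgeR fit were 0.0194 for Hba-a1, 0.0223 for Hbb-bs and 0.0462 for Hba-a2, Hbb-bt and Alas2. The block also covers MI and HI, so it is not a pairing of HC with MC alone. DESeq2 called the same 5 higher, against 1.28% of genes, and limma-voom called 0. Without HI1, which is in neither group but adds to the shared estimate of spread, edgeR called 4 of the 5, against 0.193% of genes. Slc4a1 had 25 counts over HC against 7 over MC, a ratio of 3.82 with an exact 95% interval of 1.61 to 10.5, while the test over mice gave an edgeR adjusted p of 0.488.

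Simulated altitude in IOX2 mice, HI against MI, showed smaller differences for 5 of the genes. Mean CPM in HI was 2.05 times that in MI for Hba-a1, 1.70 for Hba-a2, 2.11 for Hbb-bs, 1.87 for Hbb-bt and 2.42 for Alas2. The log2 changes were 1.03 (SE 0.25), 0.76 (SE 0.33), 1.08 (SE 0.28), 0.90 (SE 0.29) and 1.27 (SE 0.38). None of the 6 and no other gene (0%) passed in edgeR, with adjusted p values of 0.167 to 0.313. At an unadjusted p under 0.05 the 4 globins and Alas2 were higher, against 6.77% of genes, and their groups did not overlap, as for 8.02% of genes. DESeq2 called 3 of these 5 higher (Hba-a1, Hbb-bs and Alas2), against 0.951% of genes, and limma-voom called 0. A DESeq2 call of Slc4a1 is not counted here, since that gene was tested only because of its level in HI. Slc4a1 had 152 counts over HI against 11 over MI, a ratio of 13.6 with an exact 95% interval of 7.38 to 27.8, and without HI1 the ratio was 5.89 (2.99 to 12.6).

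Averaged over both treatments, altitude raised 5 of the 6 genes in edgeR. The log2 change was 1.51 (SE 0.19, adjusted p = 0.0209) for Hba-a1 and 1.43 (SE 0.24, adjusted p = 0.0401) for Hba-a2. It was 1.43 (SE 0.20, adjusted p = 0.0257) for Hbb-bs, 1.21 (SE 0.21, adjusted p = 0.0436) for Hbb-bt and 1.70 (SE 0.28, adjusted p = 0.0401) for Alas2. Slc4a1 had a log2 change of 2.81 (SE 0.66) with an adjusted p of 0.0792. Genes called higher were 36, or 0.236% of those tested, and 40 were called lower. DESeq2 called these 5, against 2.98% of genes called higher, and limma-voom called 2 of the 5, against 0.0262%. A DESeq2 call of Slc4a1 is not counted here either, since that gene was tested only because of its level in HI. The edgeR calls were close to the threshold: leaving out MC2 or MC3 ended all 5, leaving out MC1, MI1 or MI3 left 1, and leaving out HC1, HC3, HI1 or HI2 left 2; these fits called 0 to 8 genes higher in all. Leaving out HI3 kept all 5, in a fit that called 1.17% of genes higher. That fit also called Slc4a1, which is not counted for the same reason. The log2 change of Hba-a1 remained between 1.35 and 1.60 in these fits. Both averages rest on the same 12 libraries.

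**Figure D3:**
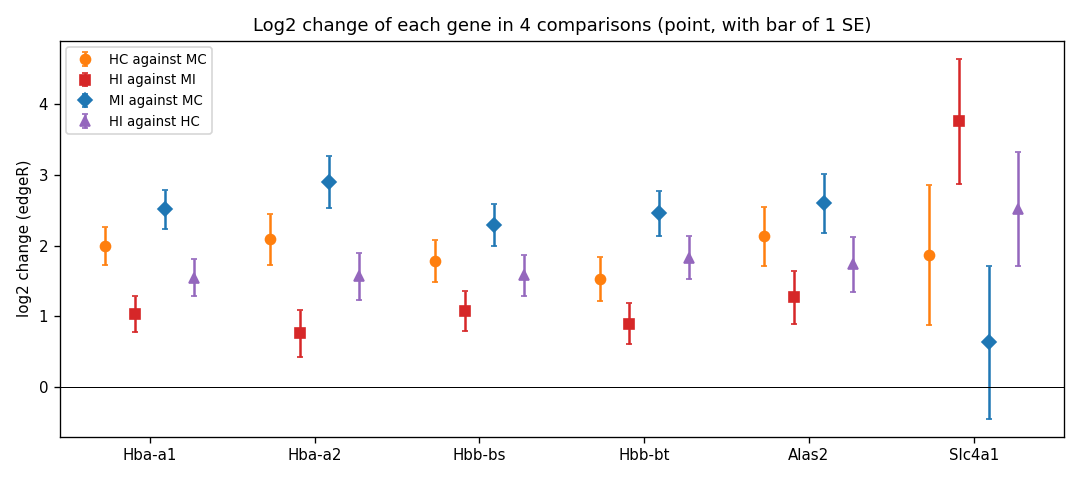
Log2 change of each of the 6 genes in 4 comparisons of 2 groups, from 1 edgeR fit; points are estimates, bars 1 SE, and the line marks 0. For the globins and Alas2 the change from altitude was 1.53 to 2.13 with vehicle and 0.76 to 1.27 with IOX2, and Slc4a1 has the widest bars.

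For the 4 globins and Alas2, the effect of altitude was smaller under IOX2 than under vehicle, and the effect of IOX2 was smaller at altitude, by point estimate. The interaction, which is the test of that difference, was -0.97 (SE 0.37) on the log2 scale for Hba-a1, -1.33 (SE 0.48) for Hba-a2, -0.71 (SE 0.40) for Hbb-bs, -0.63 (SE 0.42) for Hbb-bt and -0.86 (SE 0.55) for Alas2. None passed in edgeR and no other gene did (0%), with an adjusted p of 0.596 for Hba-a1 and Hba-a2. At an unadjusted p under 0.05, these 2 alpha globins were lower, against 4.17% of genes. DESeq2 and limma-voom called 0 of the 6. Slc4a1 had an interaction of 1.89 (SE 1.41), of opposite sign and with little weight behind it, since MI and MC held 11 and 7 counts. Between MC and HI, the groups at either end, mean CPM differed 11.7-fold for Hba-a1, 12.6-fold for Hba-a2, 10.3-fold for Hbb-bs, 10.3-fold for Hbb-bt and 14.6-fold for Alas2; this pair was not tested.

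The ratio of alpha to beta globin tells whether both chains moved alike within a tumour, and it does not depend on scaling between libraries. As counts of Hba-a1 plus Hba-a2 over Hbb-bs plus Hbb-bt, it was 0.452, 0.436 and 0.538 in MC and 0.582, 0.562 and 0.576 in MI, against 0.556, 0.583 and 0.579 in HC and 0.516, 0.597 and 0.545 in HI. The means of these groups were 0.475 ± 0.0550, 0.573 ± 0.0101, 0.573 ± 0.0149 and 0.553 ± 0.0408 (SD, n = 3), respectively. While the summed globins spanned 18.95 to 294 CPM, the ratio spanned 0.436 to 0.597. The MC counts were the fewest, and their 95% Wilson intervals ran from 0.388 to 0.525 in MC1 and from 0.463 to 0.625 in MC3, so MC3 could not be told from the other groups at this depth. MC lay below MI and below HC without overlap, by 0.28 and 0.27 on the log2 scale, and each exact two-sided permutation test gave 0.1, the smallest p that 3 tumours against 3 allow. HI differed from MI by -0.06 (exact permutation p = 0.5) and from HC by -0.05 (exact permutation p = 0.6). Over 6 tumours against 6, the log2 difference was 0.11 for altitude (exact two-sided permutation p = 0.242) and 0.11 for IOX2 (p = 0.238 by the same exact test). Adjusted over 8 such tests of 4 ratios, both were 0.323, and the smallest p this design allows is 0.0021645. Per unit of length, from the deposited FPKM, the ratio ran from 0.497 to 0.680 with the same order of groups.

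**Figure D4:**
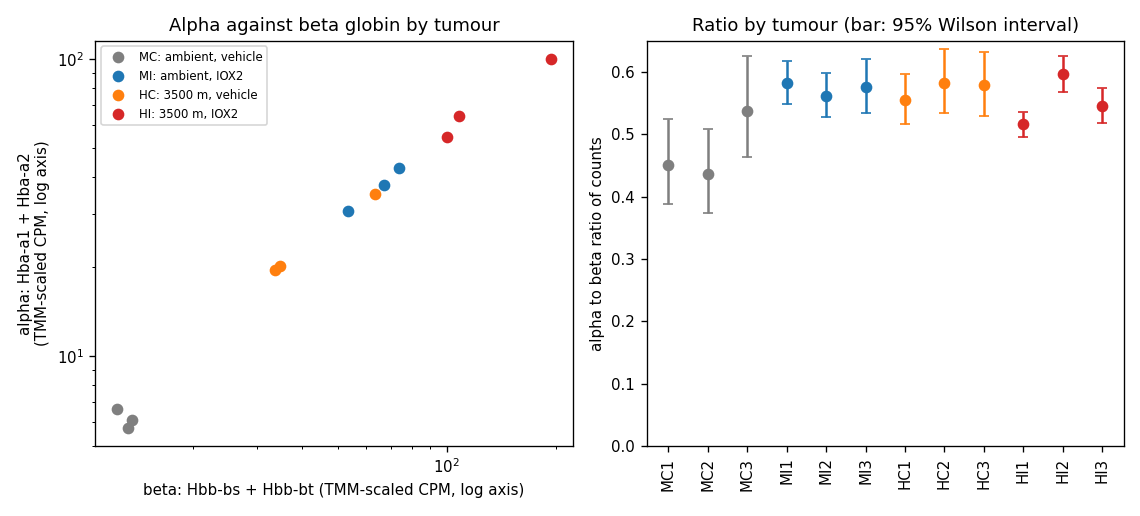
Left, summed alpha against summed beta globin of each tumour in TMM-scaled CPM on log axes; right, the alpha to beta ratio of counts with its 95% Wilson interval, which covers counting error only, on an axis from 0. The 12 tumours fall along 1 line on the left, and on the right 2 MC tumours, at 0.436 and 0.452, have the lowest ratios.

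Within each pair, the split is subject to the limits given above for near-identical copies. Hba-a1 took 89.5% of alpha counts in MC2 (95% Wilson interval 84.8% to 92.8%), above the 77.4% of MC3 (71.9% to 82.1%) and the 77.1% to 83.2% of all other tumours. Hbb-bs took 83.6% to 89.1% of beta counts. The altitude difference was 0.878 percentage points for the Hba-a1 share (exact permutation p = 0.729, adjusted 0.729) and 1.46 for the Hbb-bs share (exact permutation p = 0.208, adjusted 0.323). The IOX2 difference was -2.47 percentage points for Hba-a1 (exact permutation p = 0.221, adjusted 0.323) and -1.72 for Hbb-bs (exact permutation p = 0.139, adjusted 0.323). Alas2 counts per 100 globin counts ran from 3.99 to 7.54, with group means of 5.07 ± 1.50 and 5.70 ± 1.76 at ambient altitude (MC, MI) and 6.32 ± 0.478 and 6.79 ± 0.620 in the chamber (HC, HI; SD, n = 3). The altitude difference of this ratio was 0.33 on the log2 scale (exact permutation p = 0.0952, adjusted 0.323) and the IOX2 difference 0.13 (exact permutation p = 0.483, adjusted 0.552).

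Agreement between genes within a tumour was read from each gene's log2 CPM minus its mean over the 12 tumours. Over the 4 globins and Alas2, the mean deviation was -1.78, -2.15 and -1.97 in MC1 to MC3, 0.78, 0.69 and 0.18 in MI, 0.43, -0.44 and -0.33 in HC, and 2.08, 1.30 and 1.20 in HI. The SD over the 5 genes was 0.0674 in HI2, the closest agreement, and 0.474 in MC2, the widest, where Hba-a2 had 24 counts. In HC1 the 5 deviations ran from 0.17 to 0.51 and in HC2 from -0.80 to -0.27, so HC1 stood above its group in all 5 genes. MI3 was the lowest MI tumour in all 6 genes.

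With group means removed, Pearson's r over the 12 tumours was 0.98 between Hba-a1 and Hbb-bs, 0.85 between Hba-a1 and Hbb-bt, and 0.69 between Hba-a1 and Hba-a2. It was 0.79 between Hba-a1 and Alas2 and 0.80 between Hbb-bs and Alas2. The lowest r between globins was 0.45, for Hba-a2 and Hbb-bt, and r was 0.63 between Hba-a2 and Alas2. With Slc4a1, r was 0.28 to 0.73. These describe differences between tumours of the same group, which share library and depth, and they carry no test.

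Likeness to the globins was measured as Pearson's r with the mean log2 CPM of the 4 globins over the 12 tumours. Alas2 stood at 0.98 and Slc4a1 at 0.68. Of the other genes reported here, Ifng, which encodes interferon gamma, stood at 0.87, Hopx at 0.85, Them6 at 0.83, Mycbp2 at 0.82 and Cers6 at 0.82. After removal of group means the genes highest by r were others, Creld1, Arhgef1, Dffa, Tmem38b, Ikbke and Crhbp, at 0.92 to 0.95, and Alas2 stood at 0.86. These r values were picked among the highest of all genes and are a description.

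The embryonic globins Hba-x, Hbb-bh1, Hbb-bh2 and Hbb-y had 0 counts in all 12 libraries, and the theta globins Hbq1a and Hbq1b had at most 4 counts in any library. Other genes of late red-cell development were near the limit too. Ahsp, which stabilises free alpha chains, had 15 counts in all, and Rhag, Epb42, Kel, Car1, Tspo2, Hemgn and Cldn13 had at most 6 counts in any library. Epo, the erythropoietin gene, had 0 counts in every library, which allows at most 0.0728 to 0.0917 CPM.

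Of 20 genes of the red-cell membrane and skeleton, 13 were tested and none was called in any of the 7 comparisons. Their median log2 change for IOX2 was 0.04, against 0.01 over all genes tested. Most of these genes are also active outside red cells, such as Slc2a1, a glucose transporter, at 185 ± 32.4 CPM in MC and 323 ± 127 in HI. Of 23 late red-cell genes for cytosol and organelle loss, 14 were tested and 1 was called. It was higher with IOX2 on average, as 0.0393% of all genes tested were. Of the 8 enzymes of heme synthesis shared by all cells, all were tested and none was called; Fech, which inserts the iron, stood at 52.8 ± 1.14 CPM in MC and 56.0 ± 1.65 in HI (SD, n = 3). Of 10 genes for hemoglobin and heme clearance, none of the 10 tested was called. Among them Cd163, the hemoglobin scavenger receptor of macrophages, stood at 13.5 ± 9.32, 15.9 ± 6.86, 44.5 ± 11.3 and 39.3 ± 29.4 CPM in MC, MI, HC and HI, with an altitude log2 change of 1.51 (edgeR adjusted p = 0.133).

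Of 13 red-cell transcription factors and receptors, 11 were tested and 1 was called, lower with altitude as 0.262% of all genes were: Kit, the stem cell factor receptor, which mast cells and progenitors also carry. Kit stood at 15.3 ± 0.728, 14.5 ± 1.33, 10.9 ± 1.79 and 8.70 ± 1.12 CPM in MC, MI, HC and HI (SD, n = 3), a log2 change of -0.61 (SE 0.10, edgeR adjusted p = 0.0401). Gata1, the master regulator of red-cell genes, ran from 0 to 0.585 CPM, with its highest value in MI, and was not called. Klf1, which activates the adult beta globin, ran from 0.0507 to 0.296 CPM, and Epor, the erythropoietin receptor, from 0.101 to 0.779 CPM. Neither had its groups in the order of the globins: mean Epor was 0.270 CPM in MC and 0.285 in HI.

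Markers of other cells were summed per tumour to show what else varied. Epithelial markers such as Epcam and Krt8 summed to 3873 to 4993 CPM, so tumour cells were present in all libraries. Genes of platelets, which also lack a nucleus and circulate in blood, summed to 61.8 to 65.1 CPM in MC and 59.3 to 75.6 in MI, against 47.3 to 68.9 in HC and 66.4 to 71.5 in HI, and none of 6 tested of 14 was called. Itgb3, at 44.8 ± 0.223 CPM in MC (SD, n = 3), made up most of this sum; gene by gene, 4 of the 6 were higher in MI against MC (median log2 change 0.39) and 5 of 6 in HI against HC (median 0.49). Endothelial genes summed to 715 to 763 CPM in MC and to 610 to 620 in HI, the lowest of all groups, with none of 16 called. None of the 16 was higher in HI against HC (median log2 change -0.41), and 1 was higher in HI against MI (-0.58). In MI against MC 13 were higher (median 0.12), and in HC against MC 6 were (-0.05). Neutrophil genes summed to 731 to 1301 CPM in MC and 1027 to 1479 in MI, against 977 to 1605 in HC and 863 to 1498 in HI, with none of 14 called. Mmp9, at 843 ± 286 CPM in MC (SD, n = 3), made up most of this sum. Gene by gene, 13 of the 14 were higher in MI against MC (median log2 change 0.65) and 11 in HC against MC (0.85). In HI against HC 3 of the 14 were higher (median -0.23), and in HI against MI 6 were (-0.36). Fat-cell genes summed to 882, 708 and 91.4 CPM in HC1 to HC3 and to 307, 549 and 63.5 CPM in HI1 to HI3. They ran from 66.9 to 128 in MC and from 141 to 366 in MI, so HC3 lay within the MC range and HI3 below it. None of the 11 was called, yet all 11 were higher in HC against MC (median log2 change 2.88) and in MI against MC (1.33), and on average with altitude (1.72), and none was higher in HI against HC (-0.83). B-cell genes reached 689 CPM in MI1 against 2.37 to 18.5 elsewhere, with none of 4 tested called. T-cell genes reached 136 CPM in MI1 against 45.5 to 92.4 elsewhere, and none of 9 tested was called. All 9 were higher both in MI against MC (median log2 change 0.86) and in HI against HC (0.42), and on average with IOX2 (0.66). The part of these cells in the globin differences was not tested. Without HC1 and MI1 together, IOX2 still raised the 4 globins on average, 2 of the 6 genes were called in MI against MC and 1 with altitude on average.

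**Figure D5:**
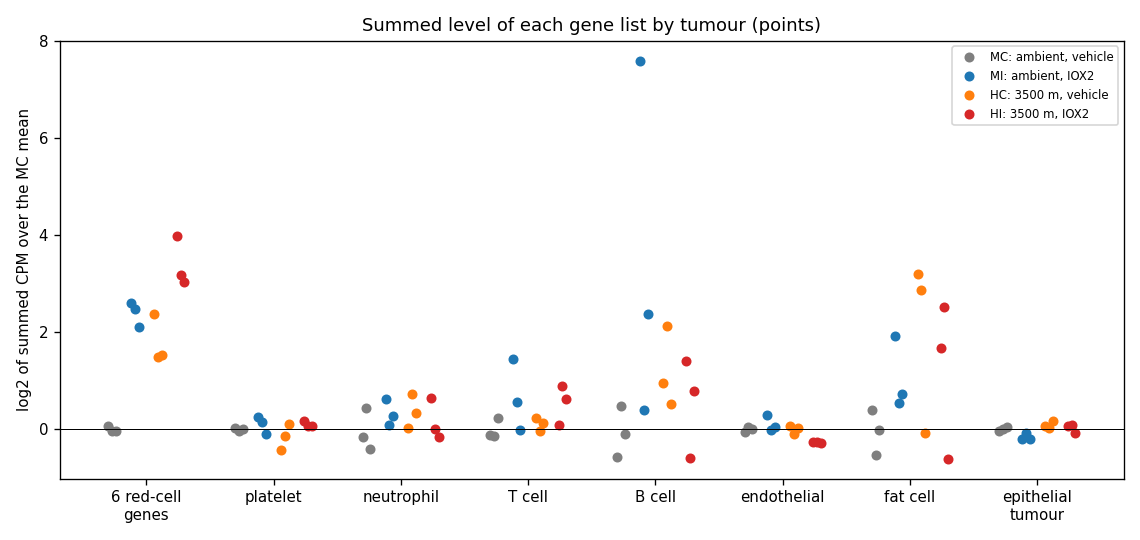
Summed CPM of the 6 red-cell genes and of 7 marker lists, as log2 over the MC mean; each point is 1 tumour. The red-cell genes lie above the MC mean in all 9 tumours of the other groups, while platelet sums, mostly Itgb3, stay near 0 and MI1 stands alone for B-cell genes.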

How the data were processed

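RNA of 12 tumours was sequenced. Per the submitters' processing notes, which give no roles, HISAT2 2.1.0, fastp 0.20.1, R 3.5.1, HTSeq 0.11.2 and DESeq2 1.22.2 were used, on build GRCm39. Which annotation was counted, and whether by strand, is not given in the sources used here. Raw counts per gene, as the authors deposited them, cover 35434 genes, 24312 of them with a count, and the authors also deposited FPKM of the same genes. Reads shared by near-identical globin copies may be dropped or placed with either copy.

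Counts were tested with edgeR 4.0.16 in R 4.3.3: filterByExpr (15269 genes), TMM factors (0.925 to 1.03), 1 quasi-likelihood fit of 12 libraries and Benjamini-Hochberg adjustment over all genes tested. The 7 comparisons were 4 pairs of groups, the interaction and 2 averages. CPM use TMM-scaled totals of the genes tested; log2 CPM have a prior count of 2. Ratios were tested by exact permutation (scipy 1.17.1). The scripts were tested on simulated data. Each mouse is 1 replicate.

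Same-numbered HC and MC tumours correlated in their deviations from group means (r = 0.28, 0.15 and 0.21). For HI and MI tumours r was 0.26, 0.07 and 0.13. The labels name no pairs or batches, so the replicate block is an alternative only. In each pair of groups other than HC and MC, at least 1 correlation was under 0.1.

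The 6 genes and 13 other lists were chosen with earlier results of these data known. Of 161 entries in the 13 lists, 159 were found, and Rhce and Trac were not found under these names. Up to 3 genes a list were eligible to be named, those with the smallest p for altitude on average, with Gata1, Klf1, Epor and the embryonic globins; others, such as Ahsp and Epo, were chosen after their values were seen. Likeness took the 6 highest r, leaving out predicted genes and pseudogenes. Items that counts include but that are withheld are not reported here. Correlation tests within each altitude were not run, since treated and untreated tumours form separate clusters. Alternatives were DESeq2 1.42.0, limma-voom (limma 3.58.1), limma on log2(FPKM + 1) and log2(FPKM + 0.1), other scaling and filters, a replicate block, smaller fits and leaving out libraries.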

Additional observations from a re-analysis of the deposited data

How the results depend on the processing

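Numbers of the 6 genes called are compared with edgeR's main result. HC against MC (0 called) gave 5 with DESeq2, 5 with the replicate block, 3 with only the 6 libraries compared, 2 with no filter on low counts and 0 to 4 when a library was left out. HI against MI (0) gave 4 with DESeq2, among them Slc4a1, which was tested only because of its level in HI. MI against MC (4) gave 0 with limma-voom, 2 with only the 6 libraries compared, 0 to 5 when a library was left out, and 2 without HC1 and MI1, a setting chosen after seeing the data. HI against HC (0) gave 5 with DESeq2 and 3 with the replicate block, whose numbers the labels do not give as pairs in any groups. Altitude on average (5) gave 2 with limma-voom, 2 on log2(FPKM + 1), 0 to 6 when a library was left out and 1 without HC1 and MI1. The 6, without HI3, include Slc4a1, which was tested only because of its level in HI. IOX2 on average stayed at 4 or 5. Apart from these, the replicate block moved no count by over 1.5 times. The cause of these shifts was not tested. Of 939 values of single genes, 814 kept direction and side of the threshold, 38 passed it newly, 87 lost it and none reversed. The alpha to beta differences of 6 tumours against 6 kept their sign and missed the threshold in the 4 other forms tried and without each library; a p over the threshold does not show that they were equal. With 3 mice a group, Slc4a1, at 0 to 13 counts outside HI, is limited by depth.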
